A study of Brassica rapa with 8 samples.

Results

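The genes described here are the 150 annotated *B. rapa* genes whose FPKM (fragments counted on a gene, divided by its exon length and by the size of the library) was lowest in callus relative to the plant tissues, out of 38200 gene models. They were chosen by a score, log2 of the lowest FPKM among leaf, root, stem, flower and silique plus 1 over the FPKM in callus plus 1, with leaf and root as the mean of their 2 samples, and the 150 highest scores were taken. Because the callus values and the lowest plant tissue selected the genes, their low level in callus is a description here and was not tested. The score also sets a floor for every plant tissue, through the lowest one and the constant of 1, and the lowest plant tissue of the 150 genes was at 3.57 FPKM or more. The order of the plant tissues above that floor, the spread between samples, the span and the position of the genes were not scored directly.

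RNA-seq of mRNA was done on 8 samples of the accession Chiifu-401-42, the inbred Chinese cabbage line of the reference genome. Leaf and root had 2 samples each from 7-week-old plants, and stem had 1 sample from plants of that age. Flower had 1 sample, from blooming plants without the floral shoot, and silique had 1 sample, taken 15 days after pollination. Callus had 1 sample from tissue culture in an illuminated box, whereas the plants stood in a greenhouse, so tissue and growth condition cannot be told apart, and no difference from callus has a replicate check. Callus is a mass of dividing, largely unorganised cells that plant tissue forms on a medium with hormones. It lacks the organ structure, the epidermis with its cuticle and the regular vascular tissue of the plant, and genes of differentiated cells are commonly low in it.

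No gene names are paired with the identifiers of the table, and 0 of the 150 identifiers were found in the RefSeq gene table, so the genes are given by identifier and position, with no name, role or sequence. For the same reason, marker genes of the tissues and pathway lists could not be looked up, and the identity of each tissue rests on its label. The genes lay on 81 of the 423 scaffolds of the table, at most 7 on one scaffold. In the order of gene models by start, where models with equal coordinates hold separate places, no 2 of the 150 genes were consecutive. Their loci spanned a median of 1986 bases (range, 313 to 9982), against 2119 bases for the 20160 genes whose 95% confidence interval of FPKM lay above 0 in all 7 plant samples, which serve as the reference genes below. All 150 genes are among these 20160. One of them, Bra028988 on Scaffold000064 from 313670 to 322853, shares its locus coordinates with another gene model, so its fragments could be split between them.

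In callus the 150 genes had a median FPKM of 1.22 (range, 0 to 30.4), against medians from 17.7 in flower to 48.5 in stem. The corresponding medians were 22.5 and 18.8 in the 2 leaf samples, 30.2 and 27.3 in the 2 root samples and 22.6 in silique. The reference genes had a median of 7.65 in callus and from 7.56 (leaf 2) to 12.7 (stem) in the plant samples. A low callus level and a floor on the plant levels are what the score selects, so the distance from the reference genes in either direction restates the choice. FPKM was under 1 in callus for 65 of the genes (43.3%). Only 1 gene was listed at 0, and 4 reached an FPKM of 10. In bulk tissue, fewer cells of a type that expresses a gene and less of its RNA per cell cannot be told apart.

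**Figure D1:**
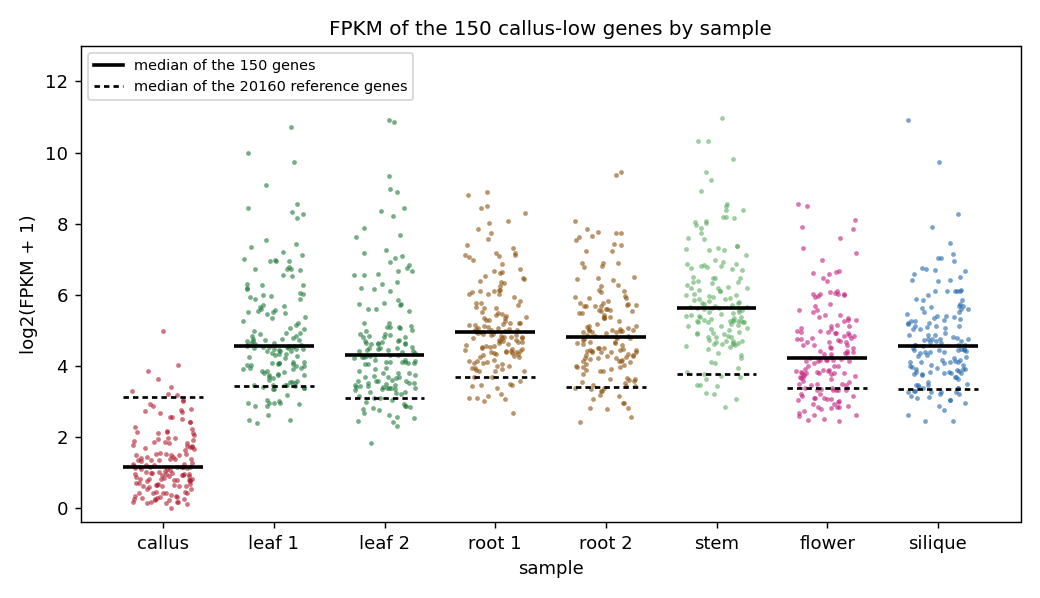
Each point is 1 of the 150 genes in 1 sample, on a log2(FPKM + 1) axis, with 1 column of points per sample. Solid bars are medians of the 150 genes and dashed bars those of the 20160 reference genes; the solid bar lies below the dashed one in callus (FPKM 1.22 against 7.65) and above it in the 7 plant samples.

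FPKM in the lowest plant tissue exceeded that in callus by a median of 10.9-fold over the 149 genes above 0 in callus (quartiles, 7.66 and 17.3; range, 5.01 to 103). The median plant tissue exceeded callus by 22.0-fold. These values rest on few fragments in callus. The deposited intervals imply a median of 17 fragments per gene there, and 25 genes had 5 or fewer, whereas the least covered plant sample of a gene had a median of 194 fragments and at least 31. For all 149 genes the upper bound of the callus interval lay below the lower bounds in all 7 plant samples, a description of the values that chose the genes. The lowest of these plant bounds exceeded the callus bound by at least 4-fold for 119 genes and by 2.78-fold for the gene where they were closest. The intervals cover counting error only and not the spread between cultures.

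The score ran from 4.37 for the first gene to 2.14 for the 150th, with a median of 2.48, and 30 genes reached 3. Among the reference genes callus was the lowest of the 6 tissues for 36%, and 1443 had a score of at least 1. The limit of the list cuts a continuous series. Bra037165, the 150th gene, had a score of 2.144, with an FPKM of 0.950 in callus and 7.62 in flower, its lowest plant tissue. Bra017496, the next one, had 2.142, with 11.2 in callus and 53.0 in flower. The callus level of the gene just outside was thus higher than that of the gene just inside, at nearly the same ratio.

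Which genes pass depends on the constant added to FPKM. With 0.1 in place of 1, only 61 of the 150 stayed in the first 150, and with 5 only 90 did, and 32 were in all 3 lists. The first 10 genes below were in all of them. The lists differ in level: the lowest plant tissue had a median FPKM of 3.29 with a constant of 0.1, 12.9 with 1 and 27.1 with 5. The list is thus a choice of level as well as of ratio.

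The scale of the callus sample also bears on the score. A single gene, Bra041155, took 17.3% of the summed FPKM in callus, and its part in the values of the other genes was not tested alone. Over the 19532 genes detected in all 8 samples, callus lay 0.37 below the median plant tissue on the log2 scale, and the 150 genes lay 3.47 below it (medians of log2(FPKM + 1), shown as differences of -0.37 and -3.47). With every sample scaled to the same upper quartile, these differences were -0.13 and -3.29, and 138 of the 150 genes stayed in the list. With each sample rescaled without the 19 genes among the 4 highest of any sample, the differences were -0.30 and -3.40, and 140 genes stayed. The genes were chosen for a low callus value, so their own difference is a description, and the part of the scale of this sample in it was not tested.

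Each other tissue was also put in the place of callus. A score of at least the limit for callus was reached by 235 genes with root as the low tissue, 150 with silique, 96 with flower, 14 with leaf and 13 with stem. Low levels restricted to one tissue were therefore found for other tissues too, and at this limit for more genes in root than in callus.

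**Figure D2:**
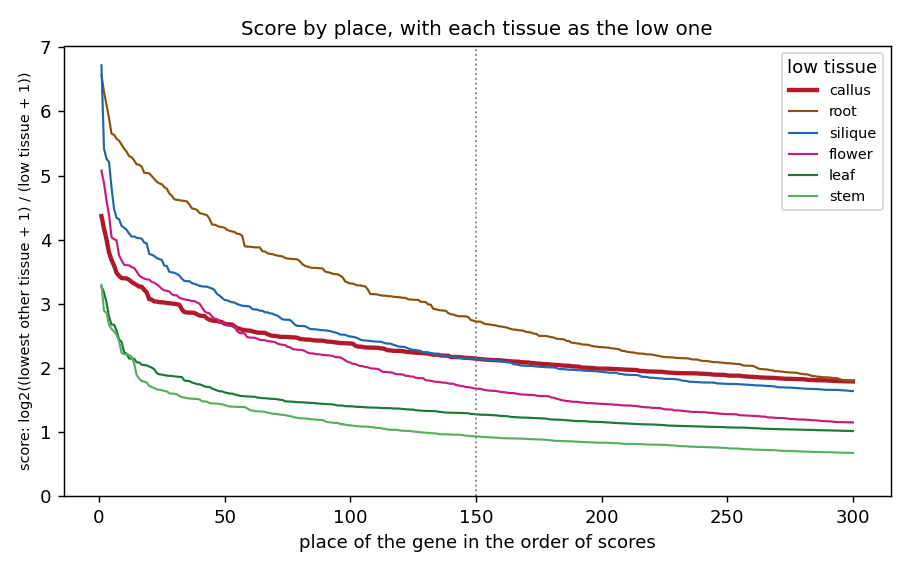
The score, log2 of (lowest other tissue + 1) over (low tissue + 1), is drawn against the place of the gene for the genes in the first places of each order, with each of the 6 tissues in turn as the low one. The dotted line marks the 150th place, where the callus curve stands at 2.14, the root curve at 2.72 and the stem curve at 0.93.

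The gene with the highest score was Bra038700, on Scaffold000151 from 206935 to 208204. In callus it reached 4.88 (95% bounds 3.60 and 6.16), against 128 and 113 in the leaf samples, 270 and 269 in the root samples, 487 in stem, 272 in flower and as much as 848 in silique. Leaf was its lowest and silique its highest plant tissue, and the 2 root samples differed by less than 1 FPKM. It was one of 10 genes above 50 in every plant sample.

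Bra008792 and Bra016855, next in the order, were highest in green organs. Bra008792, on Scaffold000008 from 1051902 to 1053218, had 548 and 506 in leaf against 0.762 in callus, 31.1 and 30.4 in root, 37.7 in stem, 66.3 in flower and 129 in silique. Bra016855, on Scaffold000021 from 24613 to 25779, had 898 in stem, 347 and 198 in leaf, 232 in flower, 48.3 in silique, 41.6 and 26.3 in root and 1.18 in callus. Both had their lowest plant level in root, where the samples of root lay below those of leaf without overlap.

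Bra003840, on Scaffold000003 from 3848497 to 3853186, was highest in root, at 478 and 655, followed by silique at 308. It had 92.3 and 101 in leaf, 53.6 in stem, 46.9 in flower and 2.43 in callus. Bra001788, on Scaffold000001 from 9699611 to 9700847, was also highest in root, at 96.8 and 76.1, with 49.2 and 35.7 in leaf, 64.0 in stem, 39.5 in silique, 27.5 in flower and 1.22 in callus. For both genes the 2 root samples lay above every other sample.

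The other 5 of the first 10 genes had stem as their highest tissue. Bra033604, on Scaffold000089 from 233064 to 235641, had 106 in stem, 44.7 in silique, 64.0 in flower, 29.5 and 23.4 in leaf, 25.3 and 19.8 in root and 0.942 in callus. Bra037702, on Scaffold000132 from 283844 to 284278, had 703 in stem, 361 in flower, 161 and 347 in leaf, 190 and 214 in root, 23.0 in silique and 1.22 in callus. Its leaf samples differed by more than 2-fold, and its callus value rested on 4 fragments with a lower bound of 0.

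Bra020707, Bra028051 and Bra030988 had a flatter profile. Bra020707, on Scaffold000031 from 1604662 to 1605486, had 1.08 in callus from 3 fragments, 50.1 in stem, 22.4 in silique, 22.3 in flower, 23.0 and 33.4 in leaf and 21.2 and 43.9 in root. Bra028051, on Scaffold000059 from 690504 to 693573, had 0.103 in callus from 2 fragments, and between 9.42 (root 2) and 27.2 (stem) in the plant samples, with 16.8 in flower, 20.7 in silique, 21.1 and 16.4 in leaf and 11.9 in root 1. Its lowest plant tissue exceeded callus by 103-fold, the largest ratio among the 149 genes. Bra030988, on Scaffold000074 from 63566 to 68152, had 0.596 in callus from 20 fragments and stayed between 15.5 (root 2) and 23.9 (stem) in the plant samples.

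**Figure D3:**
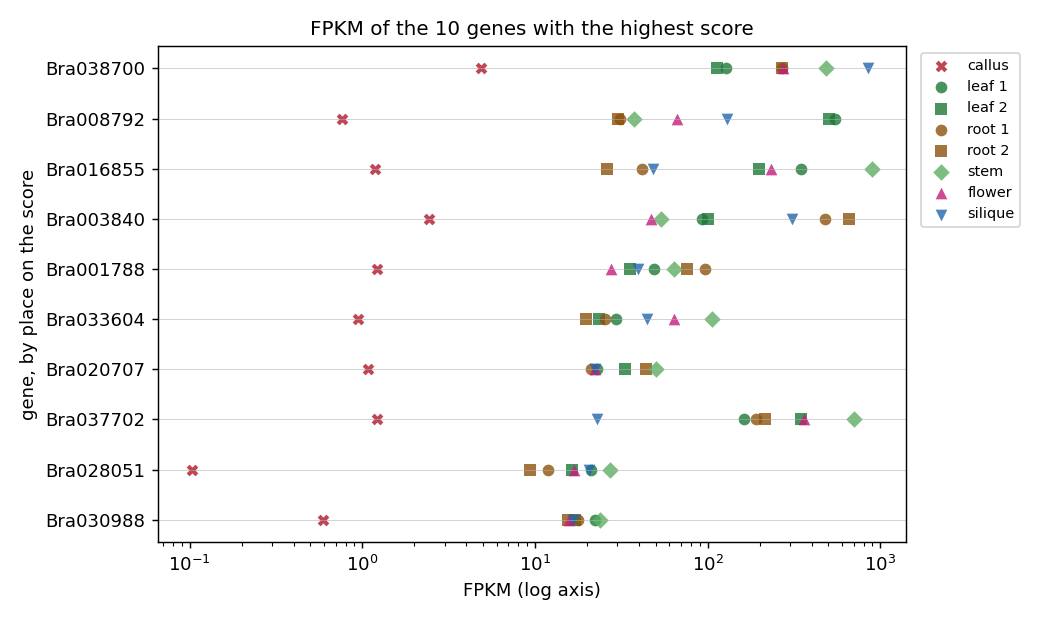
FPKM on a log axis is shown for the 10 genes with the highest score, 1 row per gene and 1 symbol per sample. The red crosses of callus (0.103 to 4.88) stand to the left of the other 7 symbols in every row, and the spread of the plant samples is widest for Bra037702 and Bra016855 and narrowest for Bra030988.

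Stem was the plant tissue of highest FPKM for 89 of the 150 genes (59.3%), against 35.9% of the reference genes. Root was highest for 21 (14.0%, against 19.9%), leaf for 18 (12.0%, against 12.1%), silique for 14 (9.33%, against 16.2%) and flower for 8 (5.33%, against 15.9%). Stem was first or second for 125 genes (83.3%, against 59.3%), and in the 89 genes led by stem, root was second for 56. The single stem sample lay above all 6 other plant samples for 86 genes. For that count and for root as second, no share of the reference genes was computed. Stem values were high in general: with every sample scaled to the same upper quartile, stem led for 71 of the genes (47.3%) and for 22.3% of the reference genes. No test was made on these shares, since stem has 1 sample.

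**Figure D4:**
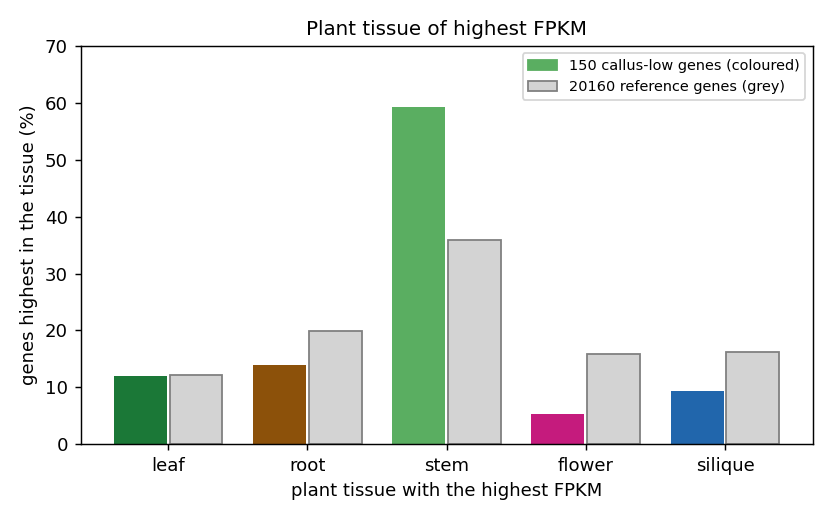
Bars give the percentage of genes whose highest FPKM among the 5 plant tissues was in leaf, root, stem, flower or silique, coloured for the 150 genes and grey for the 20160 reference genes. The coloured bar is above the grey one in stem (59.3% against 35.9%), level with it in leaf, and below it in root, flower and silique.

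At the other end, flower was the lowest plant tissue for 57 genes (38%, against 23.8% of the reference genes), leaf for 36 (24.0%, against 31.2%), silique for 33 (22.0%, against 23.4%), root for 20 (13.3%, against 12.4%) and stem for 4 (2.67%, against 9.17%). The next lowest tissue was within 1.5-fold of the lowest for 104 genes, a count that was not taken over the reference genes. Stem lay at least 2-fold above leaf, on log2(FPKM + 1), for 82 genes (54.7%) and at least 2-fold below it for 9 (6%). Among 24806 genes that reached an FPKM of 1 in leaf or stem, the corresponding shares were 26.9% and 9.63%, and among the reference genes 25.4% and 6.92%. Against root, stem was 2-fold higher for 54 genes (36%) and 2-fold lower for 6 (4%), where the 26694 genes that reached 1 in root or stem gave 18.8% and 18.9%, and the reference genes 16.5% and 10.9%. With upper quartile scaling the counts of the 150 genes for stem against root were 39 and 11. No shares of other genes were computed at that scaling, so these counts have no background.

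Flower was at least 2-fold above silique for 18 genes (12.0%) and silique above flower for 32 (21.3%), against 21.5% and 18.1% of the 26405 genes that reached an FPKM of 1 in one or both. Among the reference genes these shares were 13.9% and 12.2%. The share with flower higher was thus below that of all genes and near that of the reference genes, and the share with silique higher was near that of all genes and above that of the reference genes. The median difference of flower from silique was -0.24 on the log2 scale for the 150 genes and 0.03 for the 26405 genes.

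Pairs of tissues stood out in a small part of the list. Root and stem were both at least 2-fold above the other 3 plant tissues for 14 genes (9.33%), against 3.39% of the reference genes. Among them was Bra032889, on Scaffold000084 from 783144 to 785125, with 1293 in stem, 359 and 202 in root, 171 and 101 in leaf, 63.7 in flower, 19.8 in silique and 1.61 in callus. Leaf and stem formed such a pair for 8 genes, against 2.86% of the reference genes, and flower and silique for none, against 2.28%. The 2 samples of root and of leaf in Bra032889 each differed by more than 1.5-fold, and its root and leaf samples did not overlap.

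Levels over the 5 plant tissues were far from even. The coefficient of variation had a median of 65.4% (quartiles, 49.8% and 85.4%), against 50% for the reference genes. The ratio of the highest to the lowest tissue had a median of 4.69, against 3.61. It stayed within 2-fold for 11 genes and exceeded 10-fold for 27, counts that were not taken over the reference genes. The index T of tissue specificity, which is 0 for a gene at the same level in all 6 tissues and 1 for a gene of a single tissue, had a median of 0.696, against 0.550. T includes the callus value that chose the genes.

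The most even profile was that of Bra037968, on Scaffold000137 from 87826 to 88853, with a coefficient of variation of 6.34%. Its FPKM was 0.536 in callus, 9.24 and 6.17 in leaf, 8.18 and 6.01 in root, 8.26 in stem, 7.26 in flower and 7.25 in silique, so that the samples of leaf differed more than the tissues did. Bra013697, on Scaffold000014 from 2665896 to 2669065, was nearly as even at a higher level, with 4.72 in callus and 21.6 (leaf 2) to 34.4 (root 1) in the plant samples. Bra012074, on Scaffold000012 from 1272855 to 1277048, had 0.576 in callus and 6.67 (leaf 2) to 15.6 (root 1) in the plant samples. In all 3 genes the 2 samples of leaf and of root differed in the same direction, sample 1 being higher. Sample 1 was also the higher one for most reference genes, in leaf and in root.

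The genes with the highest mean over the plant tissues were uneven. Bra024832, on Scaffold000046 from 300499 to 301168, had the highest mean, with 2021 in stem, 444 and 694 in root, 372 and 474 in leaf, 240 in flower, 47.2 in silique and 4.92 in callus. Bra022585, on Scaffold000038 from 885209 to 887405, had 1671 and 1925 in leaf, 596 in stem, 316 and 230 in root, 83.1 in flower, 68.7 in silique and 9.56 in callus. Bra011925, on Scaffold000012 from 163338 to 164213, had 1291 in stem and 376 in flower, and between 103 (silique) and 168 (root 2) in the other plant samples, with 125 and 107 in leaf, 144 in root 1 and 11.3 in callus. Silique was the lowest plant tissue of all 3.

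Single tissues stood well above the rest in 45 genes, where the highest tissue exceeded the next by at least 2-fold. Of these, 31 were led by stem, 6 by leaf, 4 by silique, 3 by root and 1 by flower. No such counts were taken over the reference genes, of which 35.9% had stem as their highest tissue. Bra019741, on Scaffold000029 from 783951 to 785489, reached 1945 in silique, 7.55-fold above stem at 258, with 187 and 143 in leaf, 106 and 66.9 in root, 143 in flower and 7.29 in callus. Bra001707, on Scaffold000001 from 9185232 to 9186751, had 123 in silique, 46.5 and 24.9 in leaf, 29.0 and 17.4 in root, 27.1 in stem, 12.9 in flower and 0.987 in callus. Silique was the highest sample of both genes.

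Bra038157, on Scaffold000140 from 174976 to 175505, had 109 in stem, 4.69-fold above flower, the next tissue, at 23.2. It had 25.3 and 20.6 in leaf, 9.44 in silique and 7.88 and 9.37 in root, and in callus 0.328 from 2 fragments. Bra033226, on Scaffold000087 from 78096 to 80676, was the gene that flower led by the widest margin, with 38.4 there, 21.4 and 14.1 in leaf, 13.3 in silique, 12.1 in stem, 10.8 and 7.41 in root and 0.687 in callus. Bra008735, on Scaffold000008 from 829554 to 831000, had 61.4 in flower, 42.2 in stem, 32.0 and 37.1 in root, 28.8 and 25.5 in leaf, 26.7 in silique and 1.88 in callus. In both genes flower lay above every other sample.

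Bra003242, on Scaffold000003 from 661968 to 664404, was led by root, with 24.3 and 20.2, followed by stem at 9.82, silique at 7.85, leaf at 6.31 and 4.95, flower at 5.01 and callus at 0.334. Its root samples lay above all others. The gene listed at 0 in callus was Bra025784, on Scaffold000049 from 866298 to 867667. It had 26.2 in silique, 17.7 in stem, 9.76 and 8.71 in root, 6.0 in flower and 4.56 and 2.57 in leaf. Its silique and stem values lay above the medians of the reference genes, and its leaf, root and flower values lay below them. Bra025784 stood in the 138th place, and no fold against callus is given for it.

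A test was possible for leaf against root, which had 2 samples each, and limma was applied to log2(FPKM + 1) of 25725 genes. Their levels entered the score through the lowest tissue. At a Benjamini-Hochberg adjusted p under 0.05, 59 of the 150 genes (39.3%) were higher in root and 22 (14.7%) were higher in leaf. Among all genes tested the shares were 34.6% and 16.3%, and among the reference genes in the fit 28.1% and 13.4%. The median difference of leaf from root was -0.56 on the log2 scale for the 150 genes, -0.47 for all genes and -0.41 for the reference genes. In this fit of all 4 samples the shares of the 150 genes lay near those of all genes. Against the reference genes, the share higher in root was larger (39.3% against 28.1%) and that higher in leaf was near (14.7% against 13.4%). With the replicate number as a block, 91 genes (60.7%) were higher in root and 34 (22.7%) in leaf, against 54.8% and 22.2% of all genes. The labels do not say that equal numbers share a batch. Both counts fell when any 1 of the 4 samples was left out, and that for root fell most without root 1. The counts over all genes fell in the same fits, and that for root again most without root 1. The fall was thus not particular to the 150 genes. The share called higher in root was under that of all genes without root 1, root 2 or leaf 2, and over it without leaf 1. The share called higher in leaf was under that of all genes in each of these fits. Such a fit leaves 1 sample in leaf or root, so these directions are a description.

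Of the genes higher in leaf, Bra040927 on Scaffold000317 from 6108 to 7197 differed most. It had 1006 and 1865 in leaf, 42.8 and 53.0 in root, 291 in stem, 68.3 in silique, 157 in flower and 6.26 in callus, and leaf exceeded root by 4.82 ± 0.36 (SE) on the log2 scale (limma adjusted p = 7.4e-05). Bra008792, given above, averaged 527 ± 29.7 in leaf and 30.8 ± 0.497 in root (SD of n = 2 samples in each), a difference of 4.05 ± 0.24 (SE; limma adjusted p = 3.2e-05). In both genes the leaf samples lay above all other samples.

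Bra006908, on Scaffold000006 from 193085 to 196104, had 122 and 136 in leaf, 68.4 in stem, 19.4 in silique, 13.9 in flower, 9.40 and 4.95 in root and 0.697 in callus, a difference of 4.05 ± 0.32 (SE; limma adjusted p = 9.4e-05). Bra040236, on Scaffold000192 from 83010 to 84194, had 164 in stem and 122 and 152 in leaf against 16.3 and 16.6 in root, with 67.3 in silique, 17.3 in flower and 2.64 in callus (difference 2.97 ± 0.24, SE). Bra016855, given above, differed by 2.95 ± 0.37 (SE). For these 3 genes stem and leaf were the 2 highest tissues.

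Of the genes higher in root, Bra016990 on Scaffold000021 from 665122 to 667274 differed most. It had 101 and 84.1 in root, 43.9 in stem, 17.9 in flower, 14.9 and 9.72 in leaf, 8.67 in silique and 1.03 in callus, and leaf minus root was -2.83 ± 0.28 (SE; limma adjusted p = 0.00025). For Bra003840, given above, it was -2.53 ± 0.28 (SE; limma adjusted p = 0.00036). Root was the highest tissue of both genes, and both remained below an adjusted p of 0.05 when any 1 of the 4 samples was left out.

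Bra022416, on Scaffold000037 from 1621515 to 1624069, had 40.4 and 50.3 in root, 20.0 in flower, 9.96 in silique, 8.13 and 9.65 in leaf, 7.35 in stem and 0.528 in callus (difference of leaf from root -2.22 ± 0.25, SE). It was one of the 4 genes with stem as the lowest plant tissue. Bra038911, on Scaffold000154 from 373498 to 376079, had 150.98 in stem, 115 and 69.8 in root, 67.8 in silique, 21.1 and 11.1 in leaf, 9.42 in flower and 1.22 in callus (-2.47 ± 0.38, SE; limma adjusted p = 0.0018, and 0.072 without root 1). Bra025923, on Scaffold000050 from 145591 to 146567, had 378 in stem, 257 and 187 in root, 62.1 and 31.0 in leaf, 37.95 in flower, 12.7 in silique and 1.69 in callus (-2.29 ± 0.38, SE; limma adjusted p = 0.0024, with 0.086 without root 1 and 0.053 without root 2).

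**Figure D5:**
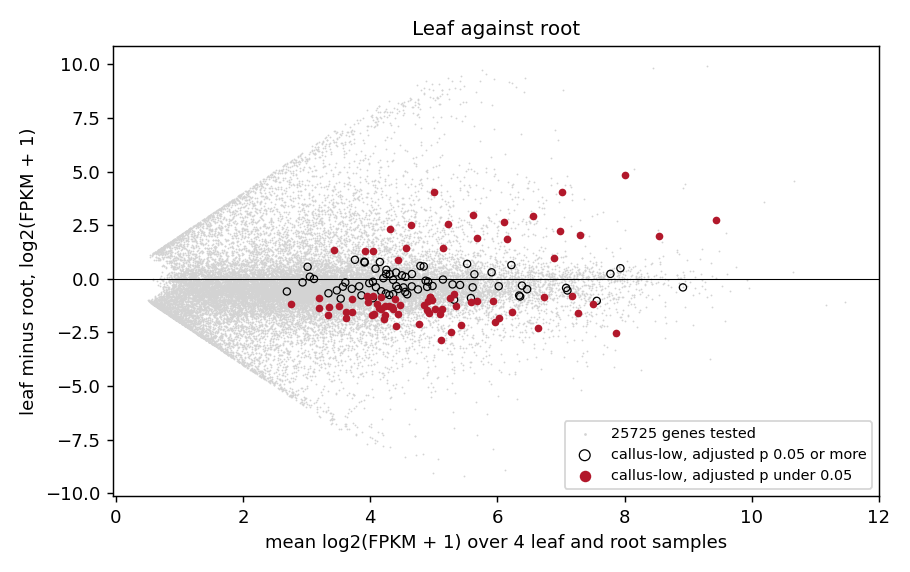
The difference of leaf from root on log2(FPKM + 1) is plotted against the mean of the 4 leaf and root samples, for the 25725 genes tested (grey) and the 150 genes (filled red where the limma adjusted p was under 0.05, open otherwise). Of the 150 genes 59 are red below the line at 0 and 22 above it, and Bra040927 is the highest red point, at 4.82.

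The spread between samples was like that of other genes in direction and in median. Sample 2 was lower than sample 1 in leaf for 123 of the 150 genes, against 80.7% of the reference genes (median log2 difference -0.32, against -0.29). In root it was lower for 114 of the 150 genes, against 76.3% of the reference genes (-0.21, against -0.25). A difference of at least 2-fold between the 2 samples was seen for 3 of the 150 genes in leaf and for 2 of the 150 in root. Both were smaller shares than those of the reference genes, 3.97% in leaf and 3.10% in root. The genes with the largest difference shared by both tissues were Bra023702, on Scaffold000041 from 1868357 to 1870531, and Bra021558, on Scaffold000034 from 1798401 to 1800237. Bra023702 had 40.0 and 18.8 in leaf and 74.8 and 40.5 in root, with 3.51 in callus. Bra021558 had 10.1 and 5.40 in leaf and 19.9 and 11.3 in root, with 0.275 in callus. In both genes sample 1 exceeded sample 2 in leaf and in root. No such spread can be given for callus, for which 1 sample was analysed here.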

How the data were processed

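RNA-seq of 6 tissues gave 8 samples. Per the paper's methods, the authors filtered and trimmed the paired reads, aligned them by TopHat against genome release v1.5, kept unique alignments and ran Cufflinks for FPKM. The submitters' processing notes name TopHat 1.0.13, another version than the methods, and no tool or build is given in the table. The deposited FPKM values, with 95% bounds, were used as they stand, and columns were matched to samples by the first line of the table. Coordinates are those of its scaffolds.

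The fragments behind a value were derived as 4(FPKM/d) squared, with d its distance from the upper bound. Between 87.6% (root 1) and 92.6% (leaf 2) of values below 200 were whole to within 0.05. Summed over genes, they numbered from 7731268 (silique) to 15664794 (root 1), and 8336768 in callus, with 1 very large value left out in each of root 1, root 2 and leaf 1.

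The 150 genes and the comparisons were chosen with earlier results of these data known. Leaf and root were compared with limma 3.58.1 in R 4.3.3 (lmFit, eBayes with trend), with Benjamini-Hochberg adjustment. The fit covered genes that reached an FPKM of 1 in 2 or more of these 4 libraries. It was also run on simulated data with known differences. The simulated noise was independent and of the same spread for every gene, so that run gives no error rate for these samples. Fold changes with a pseudocount of 1 understate the change of low genes. Leaf and root samples were stated to come from different batches of plants, so p-values measure the spread between such samples. The main fit did not pair the samples by replicate number. Python 3.11.15 with numpy 2.4.6, pandas 2.3.3 and matplotlib 3.10.9 was used. Named genes are the 10 with the highest score, those at its limit, the 5 with the highest mean, that listed at 0 in callus, the 5 with the largest leaf-root difference each way, the 3 most even, the 2 led most by each tissue, and the 2 with the largest shared sample difference. Bra028988 and Bra041155 were named after their values were seen. Of the table's identifiers, 1 was found in the RefSeq gene table, so lists by gene name were not run. Alternatives covered pseudocounts, scaling, filters, the replicate number as a block and each leaf and root sample left out.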

Additional observations from a re-analysis of the deposited data

How the results depend on the processing

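The number of the 150 genes kept was 61 with a pseudocount of 0.1 and 90 with 5, where the score of the 150th gene was 3.50 and 1.36 and the median score 3.86 and 1.59. Leaving out each leaf or root sample kept 137 to 147 genes. With FPKM under 1 in place of 0, 65 genes in place of 1 were counted in callus. Upper quartile scaling gave 25 genes led by silique and 11 with root at least 2-fold over stem, and a pseudocount of 5 gave 2 of the latter. For leaf against root, leaving out each sample gave 13 to 18 genes higher in leaf and 8 to 42 higher in root, from 3 samples. When the replicate number entered as a block, 34 genes were higher in leaf and 91 in root, and over all genes 5718 and 14109 in place of 4204 and 8905. The labels do not say that a number marks a shared batch. The differences of sample 2 from sample 1 had a correlation of 0.71 between leaf and root across 19532 genes, which are not independent. The other 86 comparisons of a count or score with its alternative stayed within 1.5-fold, or for a score within the spread between samples. Low levels in callus, from a median of 17 fragments in 1 sample, limit what can be said of any single gene there.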
